A study of Homo sapiens with 2 samples.

Results

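Complex I, the NADH dehydrogenase at the entry of the mitochondrial respiratory chain, is built largely from nuclear genes whose symbols begin with NDUF. The genes described here were chosen by symbol alone, as the rows named NDUFA, NDUFB, NDUFC, NDUFS or NDUFV followed by a number, together with NDUFAB1. NDUFAF assembly factors and pseudogenes were left out. Of the 41 rows with such a name, the read-through row NDUFC2-KCTD14 and the antisense row NDUFB2-AS1 were set aside, which left 39 genes out of 25277 rows. All 39 were among the 14594 rows that reached an FPKM of 1 in WT, in PERK-KO cells or in both, and these rows are called all genes below. FPKM is the number of sequenced fragments scaled by transcript length and by the mapped reads of the library, so levels can be compared between genes.

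The samples were HEK293 cells, a line derived from human embryonic kidney, at passages 15 to 20. One was wild type (WT) and the other lacked PERK (PERK-KO), an endoplasmic reticulum kinase encoded by EIF2AK3. The PERK-KO cells were made with CRISPR/Cas9 and grown from single cells, so they stand for a clone. Both were kept for 12 h in OXPHOS medium, a glucose-free medium with 10 mM galactose, 1 mM pyruvate and 10% FBS in which cells depend on oxidative phosphorylation. There was 1 sample of each genotype. No difference could therefore be tested, and the genotype cannot be told apart from the clone, the culture or the library. Limits shown with a value are the lower and upper confidence limits deposited with it. They cover error within that library, such as counting error, and no variation between cultures. A gene was called lower or higher when its FPKM differed by more than 1.5-fold.

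Complex I passes electrons from NADH to ubiquinone and pumps protons across the inner membrane. Its N module in the matrix holds the NADH site, its Q module reduces ubiquinone, and its P module in the membrane holds the proton pumps. Among the subunits from nuclear genes, a small set of core subunits carries the flavin, the iron-sulfur clusters and the quinone site. The many accessory subunits surround the core and are needed for assembly and stability. The 7 subunits encoded by mitochondrial DNA were not analysed here, because the tables hold no row for them. Their assembly intermediates give the parts of the P module their names, ND1, ND2, ND4 and ND5.

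EIF2AK3 itself had an FPKM of 5.61 (5.11 to 6.12) in WT and 3.89 (3.44 to 4.34) in PERK-KO cells. Its RNA was thus 1.44-fold lower but still present, and a Cas9 edit can leave transcript in place. After subtracting genes of like annotated transcript length, a comparison described below, the log2 ratio of EIF2AK3 was -0.73. By the worth of 1 fragment, the PERK-KO library was scaled to 87.6% of the depth of the WT library. Of the markers of HEK293 cells, LHX1 (4.65 and 2.88) and LIN28B (4.16 and 7.05) were present in both samples, and PAX2 was low in both (0.981 and 0.748). In PERK-KO cells LHX1 was 1.61-fold lower and LIN28B 1.70-fold higher, both with limits apart. IRS4 was at 0.121 in WT and 27.1 in PERK-KO cells, and NEFM at 0.662 and 5.21, so the 2 libraries differed in these markers of the line. Of the markers of other cells, ALB, CDH5 and UCP1 were listed at 0 in both, PTPRC was at 0.108 and 0.180, MYOD1 at 0.525 and 0.141, and ADIPOQ at 1.68 and 1.42. The part of these differences in the values below was not tested.

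Sequences near the start sites are shown first, where the genes were searched for promoter motifs. GABP, also called nuclear respiratory factor 2, binds sites with a GGAA core and is known for driving respiratory chain genes. Its motif CCGGAAG was looked for on both strands from 250 bases before to 50 bases after the start site, in RefSeq promoters of GRCh38.p14. A promoter was matched for 32 of the 39 genes, and 5 of them held the motif. The windows around it are written 5′ to 3′ on the strand of the gene, with the motif or its reverse complement in capitals, and the X-linked NDUFA1 stands first.
NDUFA1, chrX:119871775-119871801: tccgtcgcttCTTCCGGagccgtacgt
NDUFA13, chr19:19516205-19516231: ccgcccgggaCCGGAAGtgtgggatac
NDUFB7, chr19:14572074-14572100, minus strand: cctaaatgacCCGGAAGctgtgtctga
NDUFS1, chr2:206159585-206159611, minus strand: gctggggccaCTTCCGGcggaactgcg
NDUFS3, chr11:47578962-47578988: ggaacctccgCTTCCGGctccacgtcc
NDUFS3, chr11:47578981-47579007: ccacgtccgcCCGGAAGaagatctgct

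The 5 genes came to 15.6% of the 32 promoters. Among the other genes compared the motif was in 21.8% of 9937 promoters, and among all 35116 RefSeq promoters it was in 10.3%. The shorter CCGGAA, which lies within CCGGAAG, was in 8 of the 32 (25%) against 34.4% of the other genes. The NRF1 motif was in NDUFA8 and NDUFB4, 6.25% against 2.57%.

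The genes with CCGGAAG differed in ratio. NDUFA13 and NDUFB7 were called lower in PERK-KO cells, NDUFS3 and NDUFA1 were lower by less than 1.5-fold, and NDUFS1 was 1.19-fold higher. In all, 2 of the 5 with the motif and 12 of the 27 without it were called lower. The share was 7.54% among all genes and larger among short genes, as given below. RNA of the factor itself was at 8.16 (7.52 to 8.80) and 9.29 (8.56 to 10.03) for GABPA, the DNA-binding subunit, and at 9.28 (8.35 to 10.2) and 11.1 (10.03 to 12.2) for GABPB1, its partner. The limits of WT and PERK-KO cells overlapped in both genes, while the counting intervals of the log2 ratio, 0.03 to 0.35 and 0.06 to 0.46, lay above 0. Genes of like annotated transcript length, a comparison described below, had median log2 ratios of 0.19 and 0.20. After subtracting these, GABPA stood at -0.0008 and GABPB1 at 0.07.

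Another element, AAGATGGCG (a YY1-type motif), was added to the search with the values already known. It was found in 6 of the 32 promoters (18.8%), against 4.56% of the other genes and 1.75% of all promoters. In all 6 it began 10 to 25 bases after the start site, on the strand of the gene. The ATG within it was the annotated start codon of the canonical transcript in 6 of 6. The windows are shown because the letters of this motif include that start codon.
NDUFA6, chr22:42090729-42090757, minus strand: atgctttggcAAGATGGCGgggagcggcg
NDUFA7, chr19:8321343-8321371, minus strand: tcgcggacggAAGATGGCGtccgccaccc
NDUFA9, chr12:4649114-4649142: attgtgggaaAAGATGGCGgctgccgcac
NDUFB8, chr10:100529836-100529864, minus strand: gaagaaggtgAAGATGGCGgtggccaggg
NDUFS4, chr5:53560650-53560678: tgcctgcagcAAGATGGCGgcggtgtcaa
NDUFS7, chr19:1383914-1383942: ggccgaggccAAGATGGCGgtgctgtcag
Of these genes 3 of 6 were called lower, beside 11 of the 26 without the element and 7.54% of all genes. The median log2 ratio of PERK-KO to WT was -0.50 in both groups.

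Across the 39 genes, RNA levels in PERK-KO cells were mostly lower. The log2 ratio was negative in 36 and positive in 3, with a median of -0.55, while the median of all genes was 0.04. Summed FPKM was 8850 in WT and 5919 in PERK-KO cells, a ratio of 0.669. More than 1.5-fold lower were 17 genes (43.6%), whereas 7.54% of all genes were lower by that much. Most of the 39 genes are short, and the share among other short genes was higher, as given below with transcript length. None of the 39 was more than 1.5-fold higher, against 10.1% of all genes. The confidence limits did not overlap, with the lower value in PERK-KO cells, in 34 genes, against 18.7% of all genes. They did not overlap in the other direction in NDUFS1 alone, against 26.1% of all genes. The limits overlapped in the other 4, among them NDUFA5, NDUFA10 and NDUFV3. On either side of the 1.5-fold limit lay NDUFV2, 1.52-fold lower, and NDUFB9, 1.49-fold lower.

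**Figure D1:**
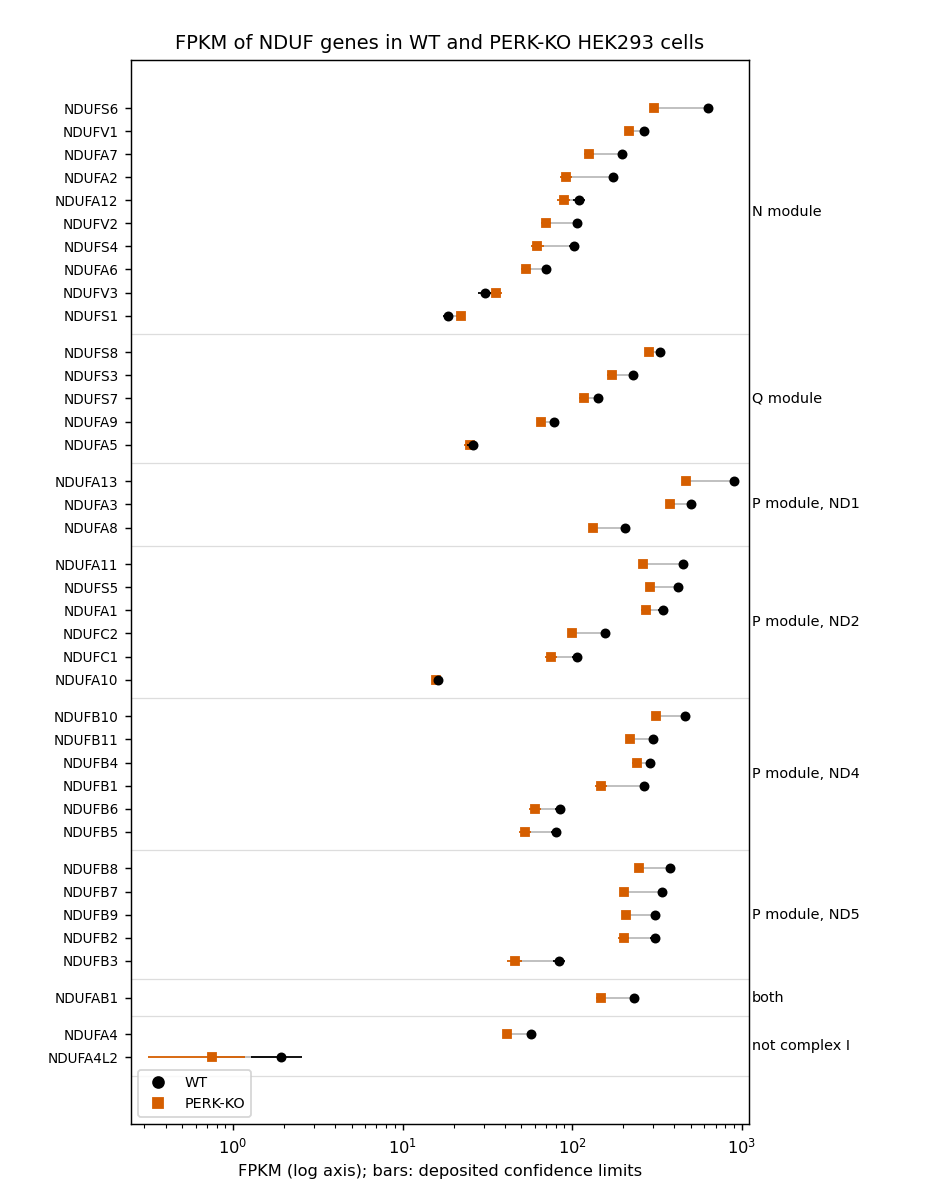
FPKM (log axis) of 38 of the 39 genes in WT (black circles) and PERK-KO cells (orange squares), grouped by module, with the deposited confidence limits as bars and 1 sample per genotype. The PERK-KO value lies to the left of the WT value in 36 genes, and the order of the genes is almost the same in both samples.

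Differences between genes within a sample were far larger than those between genotypes. Without NDUFA4L2, FPKM spanned 55.6-fold in WT and 29.8-fold in PERK-KO cells. The rank order was nearly kept, with a Spearman correlation of 0.98 over the 39 genes, which share both libraries, and no gene moved by more than 5 ranks. The highest levels in WT cells were those of NDUFA13, NDUFS6 and NDUFA3. The lowest, apart from NDUFA4L2, were those of NDUFA10 and NDUFS1.

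The N module had 10 genes with a median log2 ratio of -0.50. Of these 5 were called lower, and the limits lay apart in the lower direction in 8. NDUFS6, a zinc-binding accessory subunit (GRCh37 chr5:1801496-1816167), had an FPKM of 631 (612 to 650) in WT and 305 (291 to 319) in PERK-KO cells. That is 2.07-fold lower, with a 95% counting interval of the log2 ratio from -1.13 to -0.97. Only NDUFA4L2, described below, had a lower ratio among the 39 genes.

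The other accessory subunits of the N module differed among themselves. NDUFA2, a small thioredoxin-like subunit, was at 174 (164 to 185) and 92.3 (85.1 to 99.4), which is 1.89-fold lower. NDUFS4, a frequent site of mutation in Leigh syndrome, was at 103 (96.3 to 110) and 62.3 (56.8 to 67.8), 1.65-fold lower. NDUFA7 was 1.56-fold lower, at 196 and 126. NDUFA6 (69.9 and 53.3) and NDUFA12 (110 and 89.4) were lower by less than the limit. NDUFV3, a flexible accessory subunit, was at 30.5 (27.9 to 33.0) and 35.4 (32.4 to 38.3), so that its limits overlapped, while the counting interval of its log2 ratio ran from 0.05 to 0.38.

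Among the core subunits of the N module, each of the 3 behaved differently. NDUFV1, which binds NADH and the flavin, was at 267 (256 to 277) in WT and 216 (207 to 226) in PERK-KO cells, 1.23-fold lower. NDUFV2, an iron-sulfur subunit beside it, was at 107 (101 to 112) and 70.3 (65.6 to 75.05), the only core subunit called lower. NDUFS1, the largest subunit of the module with several iron-sulfur clusters (GRCh37 chr2:206987803-207024243), was at 18.5 (17.3 to 19.7) and 22.0 (20.5 to 23.4), 1.19-fold higher. The level of NDUFS1 was the lowest of the 3 in both samples.

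The Q module differed least between the samples. Its 6 genes had a median log2 ratio of -0.23, and none was called lower. NDUFS7, a core subunit at the quinone site, was at 143 (136 to 150) in WT and 117 (110 to 123.4) in PERK-KO cells, 1.22-fold lower. NDUFS8, which carries the iron-sulfur clusters next to it, was at 327 (317 to 338) and 285 (275 to 296), 1.15-fold lower. NDUFS3, a core subunit needed early in assembly, was at 227 (215 to 239) and 172 (161 to 182), 1.32-fold lower and the lowest ratio of the module. These core subunits were thus 1.15-fold to 1.32-fold lower. Of the accessory subunits, NDUFA9 at the joint of both arms was at 77.8 (74.5 to 81.1) and 65.4 (62.1 to 68.6), and NDUFA5 at 26.0 (24.0 to 28.0) and 24.9 (22.8 to 27.0), with overlapping limits.

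The P module, here with 20 nuclear genes that are all accessory, had a negative log2 ratio in every gene. The ratios ran from -0.93 to -0.04 with a median of -0.59, 10 were called lower, and the limits lay apart in 19. NDUFA10 was the exception, at 16.2 (15.4 to 17.01) in WT and 15.8 (14.9 to 16.7) in PERK-KO cells. The medians of its parts were -0.64 for ND1 (3 genes), -0.53 for ND2 (6 genes), -0.52 for ND4 (6 genes) and -0.61 for ND5 (5 genes).

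In the ND1 part, NDUFA13, also known as GRIM-19 (GRCh37 chr19:19627019-19639013), was the gene with the highest level of all 39. Its FPKM was 900 (877 to 923) in WT and 471 (453 to 488) in PERK-KO cells, 1.91-fold lower, with a log2 interval from -0.999 to -0.87. NDUFA8 was at 205 and 132, 1.55-fold lower. NDUFA3 was at 502 (476 to 527) and 379 (356 to 403), 1.32-fold lower. The gene with the largest difference in FPKM among the 39, NDUFA13, thus stayed first in rank.

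In the ND2 part, NDUFA11 (448 and 263) and NDUFC2 (156 and 99.5) were called lower, by 1.70-fold and 1.57-fold. NDUFS5 (422 and 288), NDUFC1 (106 and 74.99) and NDUFA1 (342 and 274) were lower by 1.25-fold to 1.47-fold. The row of NDUFC2 overlaps the read-through row NDUFC2-KCTD14, which was at 2.52 and 1.34 and so held little of the signal.

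In the ND4 part, NDUFB1 (265 and 148) and NDUFB5 (80.3 and 52.6) were called lower, by 1.79-fold and 1.53-fold. The other genes of that part ran from NDUFB4 (289 and 240), 1.21-fold lower, to NDUFB10 (460 and 314), 1.47-fold lower, with NDUFB6 (84.9 and 60.5) and NDUFB11 (299 and 218) between them. In the ND5 part at the far end of the membrane arm, 4 of 5 genes were called lower. These were NDUFB3 (83.7 and 46.1), NDUFB7 (340 and 202), NDUFB8 (378 and 248) and NDUFB2 (307 and 201), by 1.53-fold to 1.81-fold, and NDUFB9 (309 and 207) lay just outside. NDUFB8, NDUFB2 and NDUFB9 lay close together, with log2 ratios between -0.61 and -0.58. The median annotated length of the 5 ND5 genes was 535 bases. Of other genes from 500 to 600 bases, 31.8% were more than 1.5-fold lower, against 7.54% of all genes.

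NDUFAB1, the mitochondrial acyl carrier protein, sits in the complex in both the matrix arm and the membrane arm and was counted in no module. It was at 231 (221 to 241) in WT and 147 (139 to 156) in PERK-KO cells, 1.57-fold lower. NDUFA4 and NDUFA4L2 carry NDUF names, but NDUFA4 is now assigned to complex IV, and NDUFA4L2 is its paralog. NDUFA4 was at 57.3 (54.8 to 59.7) and 41.4 (39.1 to 43.6), 1.38-fold lower. NDUFA4L2 had the lowest ratio of all, at 1.91 (1.27 to 2.54) and 0.746 (0.316 to 1.17), but this rests on about 36 and 12 fragments, and its log2 interval ran from -2.30 to -0.42. Without these 2 genes, 16 of 37 were called lower and the median was again -0.55.

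**Figure D2:**
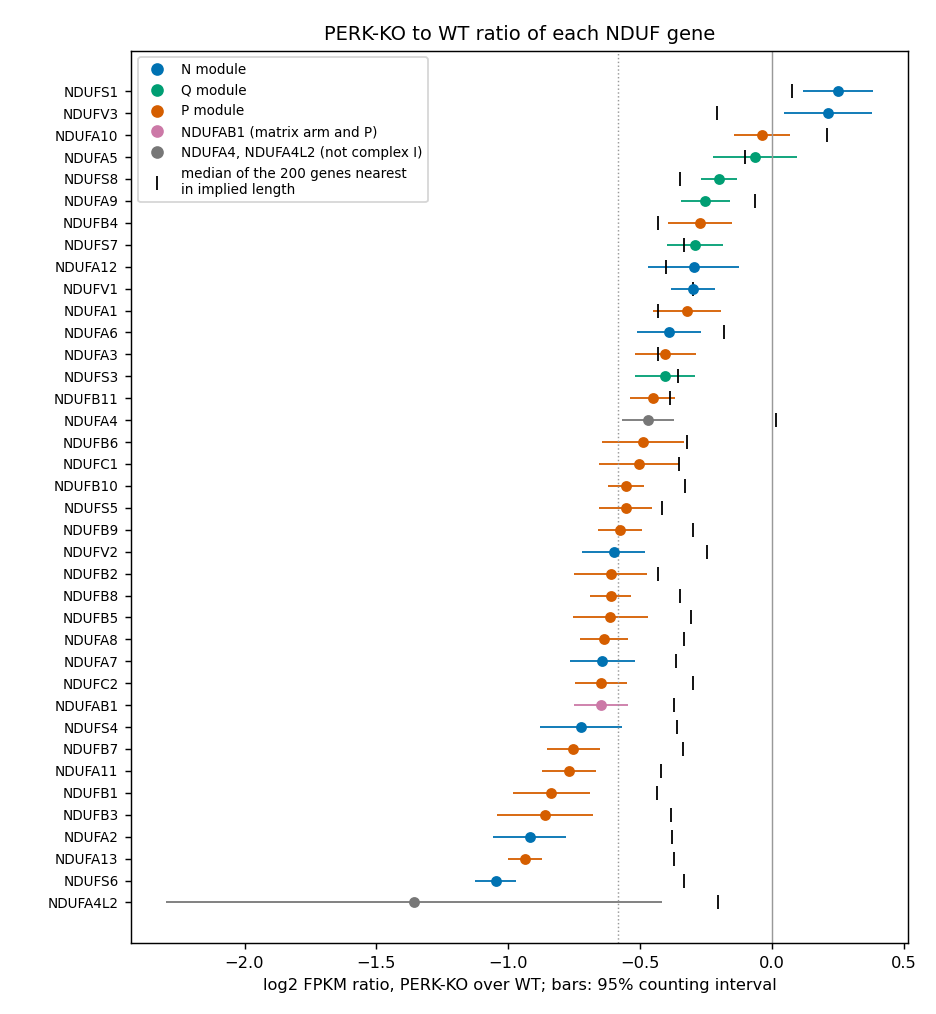
Log2 ratio of FPKM in PERK-KO over WT cells for 38 of the 39 genes, coloured by module, with the 95% counting interval as a bar and 1 sample per genotype; the dotted line marks 1.5-fold lower, and black ticks mark the median of the 200 genes nearest in implied transcript length. Genes run from NDUFS1 at the top (0.25) to NDUFA4L2 at the bottom (-1.36), and most circles lie to the left of their tick.

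The 7 core subunits, all in the N and Q modules, had a median log2 ratio of -0.29, with 1 called lower. The 9 accessory subunits of the same modules had a median of -0.39, with 4 called lower. All 30 accessory subunits, of which 20 are in the P module, had a median of -0.59, with 15 called lower. The median annotated transcript length was 894 bases in the core and 667 bases in the 30 accessory subunits, so length was considered next.

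Over all genes, the ratio rose with transcript length. The Spearman correlation of log2 ratio and annotated length was 0.45 across 13535 genes, which share both libraries and are not independent. Other genes with transcripts of up to 500 bases had a median log2 ratio of -0.35, those of 1000 to 2000 bases -0.17, and those above 5000 bases 0.26. The median annotated length of the 39 genes was 696 bases, against 3188 for all genes. Of other genes with transcripts of up to 500 bases, 33.3% were more than 1.5-fold lower, beside 3 of 5 of the 39 genes. From 500 to 600 bases it was 31.8%, beside 5 of 7, and from 600 to 700 bases 35.9%, beside 4 of 8. From 700 to 1000 bases it was 23.2%, beside 3 of 7. Up to 1000 bases, the contrast with genes of like length was thus smaller than that with all genes. From 1000 to 2000 bases it was 11.1%, beside 0 of 4, and from 2000 to 5000 bases 4.12%, beside 2 of 4. Above 5000 bases it was 1.57%, beside 0 of 4. Both an annotated and an implied length were therefore used, the first from the canonical transcript and the second from the fragments behind 1 unit of FPKM, since 14 of the 39 had an annotated transcript more than 2 times as long as implied. In NDUFS1, for example, they were 11660 and 2856 bases, and in NDUFB5 4199 and 783 bases. The shares above are by annotated length, and the 2 genes lower from 2000 to 5000 bases were NDUFB5 and NDUFC2. The implied length of NDUFC2 was 833 bases. By implied length, 0 of 2 genes were lower from 2000 to 5000 bases, beside 3.41% of other genes. From 700 to 1000 bases 4 of 5 were, beside 16.6%.

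**Figure D3:**
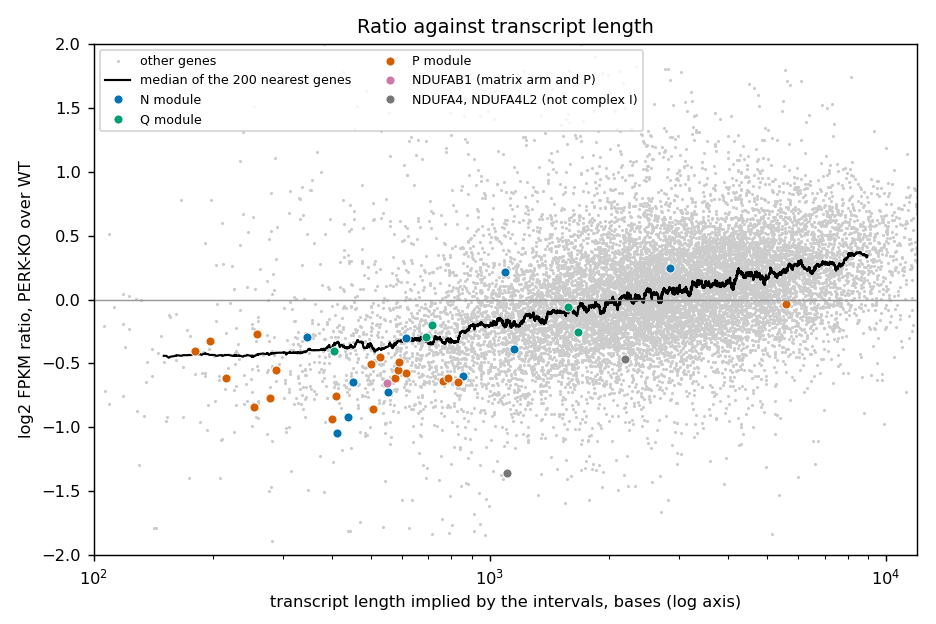
Log2 ratio of FPKM in PERK-KO over WT cells against the transcript length implied by the confidence limits (log axis), for other genes (grey) and 38 of the 39 genes by module (coloured), with the median of the 200 nearest genes as a line and 1 sample per genotype. The line rises with length, and most of the 39 genes lie at its left end and below it, with a median difference of -0.22.

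Set against the 200 genes nearest in length, the 39 genes remained lower, but by less. The median log2 ratio after subtracting their median was -0.19 by annotated length, with 33 genes below and 6 above 0. By implied length it was -0.22, with 29 below and 10 above. Of all genes, 49.9% and 50.1% lay below 0 on these scales. Over 1.5-fold lower than genes of like length were 4 genes by annotated length (NDUFA4L2, NDUFB5, NDUFS6 and NDUFC2) and 2 by implied length (NDUFA4L2 and NDUFS6). Of all genes, 5.24% and 5.51% were lower by that much on these scales. NDUFS6 stood at -0.64 and -0.71 and NDUFA13 at -0.54 and -0.56, so both were low on either length.

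On this scale the Q module lay near 0 and the N and P modules close together below it. The median of the Q module was 0.01 by annotated and 0.04 by implied length, beside -0.17 and -0.25 for the N module and -0.20 and -0.26 for the P module. Core subunits had medians of -0.09 and 0.04, the 9 accessory subunits of the N and Q modules -0.24 and -0.21, and all 30 accessory subunits -0.21 and -0.26. A few genes changed side with the length used. NDUFS1 was at -0.13 by annotated and 0.17 by implied length, NDUFV3 at -0.02 and 0.42, and NDUFA5 at -0.24 and 0.04. NDUFS8, NDUFB4, NDUFA12, NDUFS7 and NDUFA1 were among those above genes of like length on both.

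Assembly factors help to build complex I without remaining in it, and 19 of a fixed list were measured. Their median log2 ratio was -0.23, and -0.13 and -0.18 after subtracting genes of like annotated and implied length. Called lower were 4 of 19 (21.1%), and none was called higher, against 7.54% and 10.1% of all genes. C17orf89, now named NDUFAF8, a partner of NDUFAF5, was at 575 (557 to 593) in WT and 255 (242 to 267) in PERK-KO cells. It was 2.26-fold lower, a larger difference than in any of the 39 genes except NDUFA4L2, and its log2 ratio minus that of genes of like annotated length was -0.74. NDUFAF1, a member of the intermediate assembly complex, was at 19.2 (17.4 to 20.9) and 10.9 (9.55 to 12.3), 1.76-fold lower. C9orf123 (45.3 and 29.0) and TMEM186 (17.3 and 11.5), which take part in building the membrane arm, were 1.56-fold and 1.503-fold lower.

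The other assembly factors were lower by less than 1.5-fold, differed little or were higher. NDUFAF2 (63.5 and 43.0) was 1.48-fold lower with limits apart. TMEM70, COA1, NDUFAF4 and TIMMDC1 were 1.21-fold to 1.28-fold lower, also with limits apart. ACAD9 (25.1 and 26.1), ECSIT (41.5 and 38.6) and TMEM126B (51.3 and 45.2), which work in the same intermediate complex as NDUFAF1, had overlapping limits. NDUFAF3, which acts on the Q module, was at 87.4 (82.1 to 92.8) in WT and 111 (104 to 117) in PERK-KO cells, 1.26-fold higher. FOXRED1, an oxidoreductase-like factor, was at 12.1 (10.9 to 13.3) and 15.1 (13.7 to 16.5), 1.25-fold higher. These were the only 2 of 19 higher with limits apart, against 26.1% of all genes. Lower with limits apart were 9 of 19, against 18.7% of all genes.

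The genes of the other respiratory complexes were also lower before length was considered. The median log2 ratio was -0.21 in complex II (4 genes), -0.45 in complex III (9 genes), -0.58 in complex IV (11 genes) and -0.40 in complex V (17 genes). After subtracting genes of like implied length these came to -0.08, -0.06, -0.15 and -0.09, beside -0.22 for the 39 genes. By annotated length they came to 0.04, -0.09, -0.14 and -0.10, beside -0.19. Mitochondrial ribosomal proteins (76 genes) went from -0.25 to -0.06 by implied and -0.05 by annotated length. Cytosolic ribosomal proteins (85 genes), which are short and not mitochondrial, went from -0.42 to -0.01 by implied and -0.13 by annotated length, so that their distance from the 39 genes depended on the length used. The differences between these families were not tested. The complex V genes include ATPIF1, which encodes an inhibitor and not a subunit. NDUFA4 was counted with the 39 genes and not with complex IV.

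**Figure D4:**
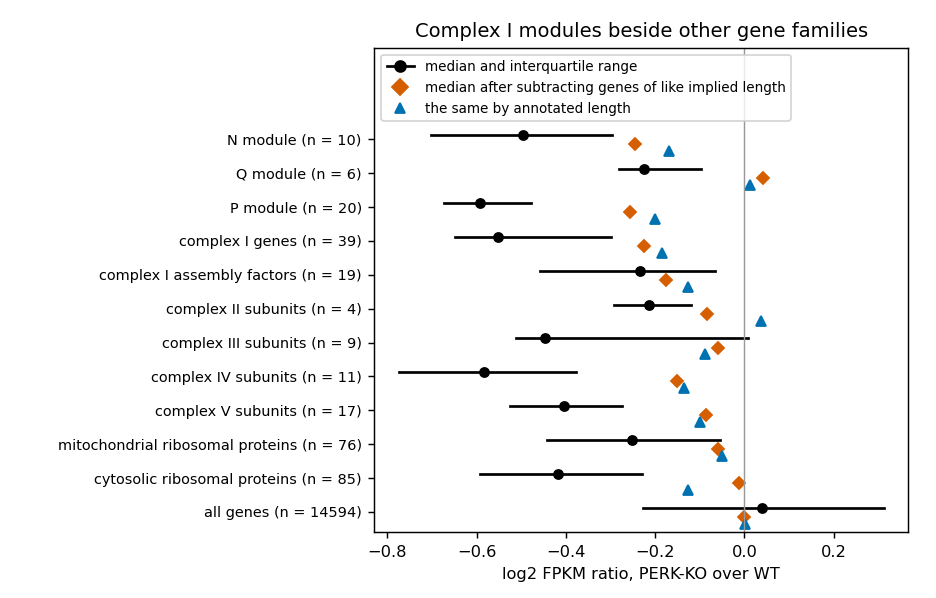
Median (black circle) and interquartile range (line) of the log2 ratio of FPKM in PERK-KO over WT cells for the complex I modules, the 39 genes together and other gene families, with the median after subtracting genes of like implied length (orange diamond) or annotated length (blue triangle). All families other than all genes have a negative median before subtraction, and afterwards the N and P modules lie at -0.25 and -0.26 by implied and -0.17 and -0.20 by annotated length.

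Some values may include signal of another row. The libraries are not stated to keep strand, and 8 of the 39 loci overlap another row, among them NDUFA4L2 with SHMT2 (110 and 122), which has far more signal, and NDUFS8 with MIR4691 (194 and 133), a row of about 5 and 3 fragments. Pseudogenes are annotated for 18 of the 39 genes, 62 in all, with 12 each for NDUFA5 and NDUFB4, and how the counting split reads between these copies is not given in the sources used here.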

How the data were processed

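Poly(A) RNA of 1 WT and 1 PERK-KO HEK293 sample was sequenced. Reads had been aligned by the authors to GRCh37/hg19 in TopHat2 2.0.13, and they deposited FPKM with confidence limits per gene from Cufflinks 2.2.1 (versions from the submitters' processing notes). Total reads are not given in the sources used here.

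Ratios were taken without a pseudocount over 14594 rows that reached an FPKM of 1 in either sample. Fragments and implied lengths were derived from the confidence limits, scaled on transcripts of 1000 to 3000 bases. The limits were taken as counting error alone, so both are approximate. Intervals of ratios used 1.96 counting standard errors. Annotated lengths came from canonical transcripts of GENCODE 44 on GRCh37 (92.8% of rows compared, all 39 genes). Each gene was set against the 200 genes nearest in length. Python 3.11.15, numpy 2.4.6, pandas 2.3.3 and matplotlib 3.10.9 were used, and the calculations were tested on simulated data.

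Members were named by module, and values of 2 genes are not reported here. Described in most detail were the 3 lowest and 3 highest ratios, the 3 highest WT levels and the core subunits; NDUFA2, NDUFS4 and the other genes with limits are given for context. Members and lists were chosen with earlier results of these data known. Alternatives were other filters, pseudocounts, scalings, folds, length settings and motifs.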

Additional observations from a re-analysis of the deposited data

How the results depend on the processing

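With 1 sample per genotype, no sample could be left out, and no variation between cultures was measured. No paired analysis was possible because each genotype had 1 sample. Of 58 recomputed values over the 39 genes, 49 stayed within 1.5 times (counts) or 0.114 (median log2 ratios) of the value given. The 58 include counts of genes higher, which stayed at 0, and counts of other motifs. No median log2 ratio changed sign, while a count had no sign to change. At a fold of 1.3 instead of 1.5, 27 genes were lower, at 2-fold 2 were (NDUFA4L2 and NDUFS6), and against genes of like annotated length 4 were. With annotated transcripts of at least 1000 bases alone, the median log2 ratio was -0.28 over all (12 genes), -0.043 in the N module (4 genes), -0.062 in the Q module (3 genes) and -0.55 in the P module (4 genes). Of these 4 P module genes, NDUFC2, NDUFB5 and NDUFB6 had implied lengths of only 833, 783 and 590 bases. The other, NDUFA10, had an implied length of 5581 bases and a log2 ratio of -0.04. Subtracting genes of like GC content in place of length gave -0.60. With genes of like length and FPKM the length-adjusted median was -0.11 instead of -0.19, a move that counts as within 0.114. Rescaling to a median log2 ratio of 0 gave 20 genes lower. The CCGGAA motif was in 8 promoters and the NRF1 motif in 2, against 5 for CCGGAAG. Restricting to genes whose 2 lengths were within 2 times of each other, chosen after seeing the data, gave -0.20 (25 genes), and implied lengths of single start sites -0.24 (36 genes). Depth limits NDUFA4L2 most.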
